A study of Mus musculus with 7 samples.

Results

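The genes described here are the 3 TGF-beta ligands (Tgfb1, Tgfb2 and Tgfb3), their receptors (Tgfbr1, Tgfbr2 and Tgfbr3), the signal transducer Smad3, the inhibitor Smad7 and the target gene Tgfbi. All probes that the array annotation assigns to these 9 of its 31829 gene names were taken, which gave 13 of 39429 probes. Tgfb2, Tgfbr1, Tgfbr2 and Smad3 had 2 probes each and the other genes had 1. RNA came from C2C12 cells, a mouse muscle line whose myoblasts fuse into myotubes, after 24 h with exosomes that other C2C12 cultures had released. In the EXO-Post Palm group (3 arrays) the donor cultures had received palmitate at 0.5 mmol/l complexed to BSA, and in the EXO-Post BSA group (4 arrays) BSA alone. Both groups of recipient cells therefore received exosomes, and no array without exosomes was analysed. The donor cells were myotubes, and exosomes were collected after a washout of 9 h in both groups, according to the methods of the study. All recipient cells were of 1 cell line. The labels give their cell type as myoblast, the study calls them myotubes, and the arrays are labelled as biological replicates with no word on how the cultures or exosome preparations were separated.

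TGF-beta is secreted in a latent complex with its own propeptide and, often, a latent TGF-beta binding protein that tethers it to the extracellular matrix. Once released, it binds the type II receptor Tgfbr2, which recruits and phosphorylates the type I receptor Tgfbr1. Tgfbr3, or betaglycan, presents the ligand, Tgfbr1 phosphorylates Smad2 and Smad3, these enter the nucleus with Smad4, and Smad7, itself a target of the pathway, shuts the receptor down. In skeletal muscle the pathway is known for holding back differentiation and fusion of myoblasts and for promoting matrix deposition.

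Each value below is a level given as the log2 of the background-subtracted spot intensity minus the 75th percentile of its array, so that 0 is the 75th percentile. Levels of different probes are not comparable with each other. Differences are log2 fold changes, EXO-Post Palm minus EXO-Post BSA, from a linear model with moderated statistics (limma) on 21589 probes, those well above background in at least 75% of the arrays from either group. The p-values were adjusted over all of these by the Benjamini-Hochberg method. Between 19125 and 27720 probes per array were well above background. The arrays stood on 4 slides, with EXO-Post BSA replicates 1 and 2 and EXO-Post Palm replicate 1 on slide 1, EXO-Post BSA replicate 4 and EXO-Post Palm replicate 3 on slide 3, and 1 array on each of slides 2 and 4. For the 9 genes, differences within slides 1 and 3 are given beside the results. With 7 arrays, the precision of each value is limited by their number.

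By limma, none of the probes for the 9 genes reached an adjusted p under 0.05, which 0.533% of all tested probes did (0.463% higher and 0.0695% lower). All 9 genes had a tested probe, 12 probes in total, and 10 of these were well above background on all 7 arrays. The log2 fold change was below 0 for 10 of the 12 (52.7% of all tested probes), with Tgfbi and 1 of the Smad3 probes above 0. At an unadjusted p under 0.05 there were 6 probes, 5 lower with EXO-Post Palm (both Tgfb2 probes, Tgfb3, 1 Smad3 probe and Smad7) and 1 higher (Tgfbi). Over all tested probes this share was 10.0%, with 5.19% lower and 4.85% higher. By limma with 1 array left out, the count of 6 was 3, 5, 4 and 5 without EXO-Post BSA replicates 1 to 4. It was 3, 6 and 1 without EXO-Post Palm replicates 1 to 3. Over all tested probes, 1644 of 19848, 2073 of 19842, 1909 of 20080 and 2260 of 21342 had such a p in the former fits. In the latter fits these were 2536 of 21595, 2230 of 22170 and 1516 of 22199. The groups did not overlap for 2 probes, Tgfbi and 1 of Smad3, against 11.3% of all tested probes. The median log2 fold change over the 12 probes was -0.38, beside -0.02 over all tested probes. The 12 probes are not independent of each other. Some share a gene, and probes of different genes were also correlated over the 7 arrays, which share groups and slides. Between genes the Pearson correlation ran from -0.90 (Tgfb2 probe A_51_P317640 and Tgfbi) to 0.86 (Tgfb2 probe A_65_P10913 and Tgfbr2 probe A_51_P450573). The 9 genes were chosen with earlier results of these data known, so the counts beside these shares are a description. RNA was taken from whole cultures, so a smaller number of cells that express a gene and less RNA of it per cell cannot be told apart.

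**Figure D1:**
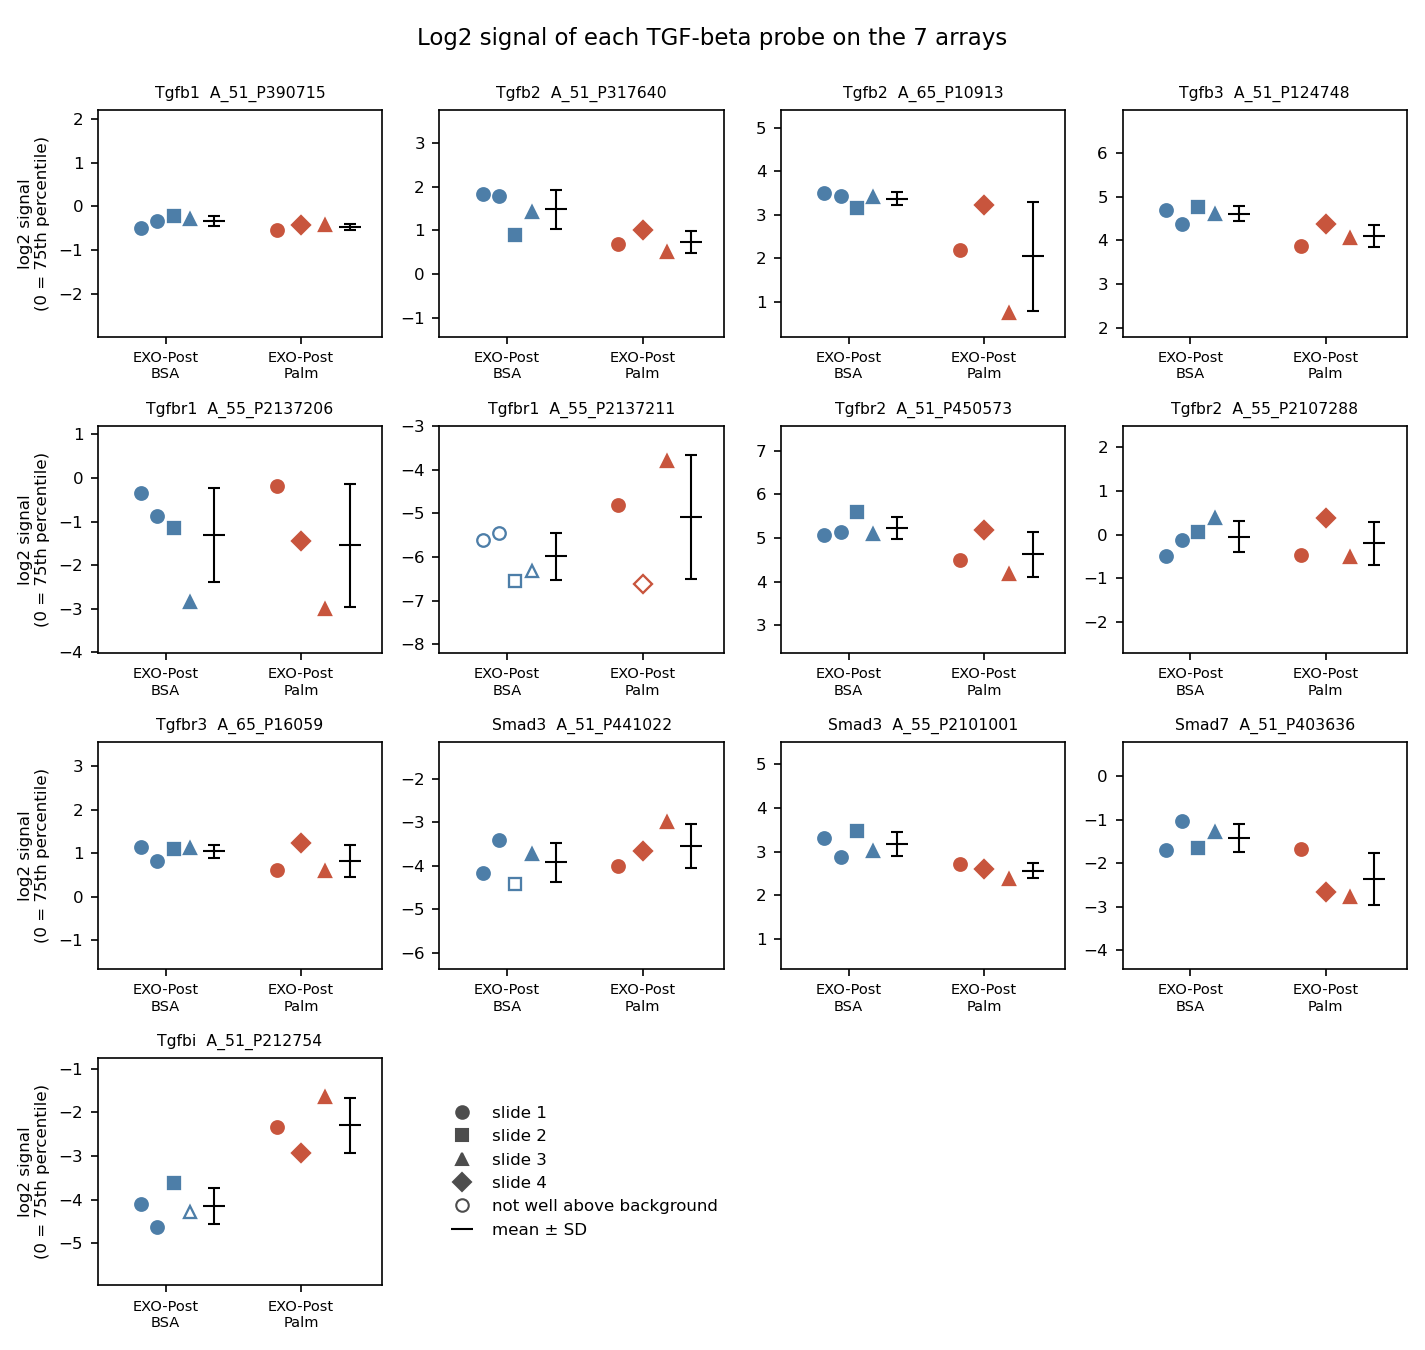
Log2 signal (vertical axis, 0 is the 75th percentile of the array) of the 13 probes on the 4 EXO-Post BSA (blue) and 3 EXO-Post Palm arrays (red). Shapes mark the slide, open symbols a spot not well above background, and the bars the mean ± SD. Each panel spans the same number of log2 units. All 3 EXO-Post Palm values of Tgfbi lie above all 4 EXO-Post BSA values, while the others mostly overlap or lie lower.

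Of the ligands, Tgfb2 showed the largest differences. Tgfb1 and Tgfb2 encode closely related secreted proteins, and 2 of the probes lie in corresponding stretches of their coding sequences, which the pair of sequences shows. The Tgfb1 probe A_51_P390715 lies at chr7:26489877-26489936 on the plus strand and the Tgfb2 probe A_65_P10913 at chr1:188449333-188449392 on the minus strand (mm9, positions from the array annotation). They are given 5′ to 3′ as deposited with the arrays. Capitals mark the bases that the probes share when they are aligned without gaps.
Tgfb1: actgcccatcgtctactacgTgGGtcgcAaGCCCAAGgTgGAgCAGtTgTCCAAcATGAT
Tgfb2: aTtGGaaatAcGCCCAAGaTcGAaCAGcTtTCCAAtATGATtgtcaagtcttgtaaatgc
The overlap is 41 bases long, and 28 of them (68.29%) are identical. The differing bases are spread over the overlap.

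The signal of Tgfb1, the most studied of the ligands, hardly differed between the groups. With EXO-Post BSA it was -0.49, -0.32, -0.23 and -0.28 (here and below in the order of replicates 1 to 4) and with EXO-Post Palm -0.54, -0.42 and -0.43 (replicates 1 to 3). The groups overlapped, with a log2 fold change of -0.13 (95% interval -0.55 to 0.29, limma adjusted p = 0.844). The difference was -0.14 within slide 1 and -0.15 within slide 3. This probe was printed 10 times per array, and its interval lay within 1 log2 unit of 0 on both sides.

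The Tgfb2 probe in the coding sequence was 3.49, 3.44, 3.15 and 3.41 with EXO-Post BSA and 2.19, 3.22 and 0.74 with EXO-Post Palm. EXO-Post Palm replicates 1 and 3 lay below all EXO-Post BSA arrays, replicate 2 lay among them, and the EXO-Post Palm arrays were spread over a far wider range (SD 1.25, n = 3) than the EXO-Post BSA arrays (SD 0.151, n = 4). This gave a log2 fold change of -1.32 (SE 0.495, 95% interval -2.45 to -0.20, limma adjusted p = 0.426, exact permutation p = 0.0571). The other Tgfb2 probe, A_51_P317640 at chr1:188447534-188447593, was 1.84, 1.79, 0.89 and 1.42 with EXO-Post BSA and 0.69, 1.01 and 0.50 with EXO-Post Palm. Here EXO-Post BSA replicate 3 and EXO-Post Palm replicate 2 brought the groups into overlap. Its log2 fold change was -0.75 (95% interval -1.39 to -0.11, limma adjusted p = 0.427). The 2 probes had the same direction on both slides that hold both groups, with -1.28 and -2.67 for the coding probe and -1.13 and -0.91 for the other, on slides 1 and 3. With slide as a block in the model the log2 fold changes were -1.88 (adjusted p = 0.110) and -1.04 (adjusted p = 0.213). Leaving out 1 array at a time moved that of the coding probe between -1.91 and -0.67. The value closest to 0 came without EXO-Post Palm replicate 3 and none of these fits brought the probe past the threshold.

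Tgfb3, the third ligand, was 4.70, 4.38, 4.78 and 4.60 with EXO-Post BSA and 3.87, 4.38 and 4.05 with EXO-Post Palm (A_51_P124748, chr12:87397804-87397863, printed 10 times per array). Only EXO-Post Palm replicate 2 and EXO-Post BSA replicate 2 met, at nearly equal values. Its log2 fold change was -0.51 (SE 0.215, limma adjusted p = 0.477), with -0.67 within slide 1 and -0.55 within slide 3.

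Among the receptors, both tested Tgfbr2 probes and the Tgfbr3 probe had log2 fold changes below 0, and none passed the test. The main probe of the type II receptor, A_51_P450573 at chr9:115997155-115997214, was 5.07, 5.13, 5.60 and 5.09 with EXO-Post BSA and 4.50, 5.18 and 4.18 with EXO-Post Palm. EXO-Post Palm replicates 1 and 3 were again below all EXO-Post BSA arrays and replicate 2 was among them. Its log2 fold change was -0.60 (95% interval -1.24 to 0.04, limma adjusted p = 0.528), with -0.60 within slide 1 and -0.91 within slide 3. Without EXO-Post Palm replicate 3 it was -0.38. The other Tgfbr2 probe, A_55_P2107288 at chr9:115999496-115999555 on the minus strand, ends on the stop codon of the coding sequence, in capitals here, and so lies in the coding part of the message.
Tgfbr2: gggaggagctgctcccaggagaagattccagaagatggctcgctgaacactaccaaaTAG
It was -0.49, -0.12, 0.06 and 0.38 with EXO-Post BSA and -0.47, 0.37 and -0.50 with EXO-Post Palm, with overlapping groups and a log2 fold change of -0.16 (95% interval -0.84 to 0.53, limma adjusted p = 0.896). On this probe, too, the differences within slides 1 and 3 were below 0 (-0.17 and -0.88).

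Tgfbr3, the accessory receptor betaglycan, was 1.13, 0.81, 1.11 and 1.11 with EXO-Post BSA and 0.62, 1.25 and 0.60 with EXO-Post Palm (A_65_P16059, chr5:107535818-107535877). Its EXO-Post Palm arrays lay on both sides of the EXO-Post BSA arrays, and the log2 fold change was -0.22 (95% interval -0.75 to 0.31, limma adjusted p = 0.788). Within slides 1 and 3 it was -0.36 and -0.51. Leaving out 1 array at a time gave -0.43 to -0.11, and the second Tgfbr2 probe gave -0.44 to -0.01. Both were farthest from 0 without EXO-Post Palm replicate 2 and nearest to 0 without EXO-Post Palm replicate 3. EXO-Post Palm replicate 2 was the array nearest to the EXO-Post BSA mean for 9 of the 12 tested probes of the 9 genes, Tgfbi among them, and for 29.9% of the tested probes on the array.

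The type I receptor Tgfbr1 could not be read with the same precision. Its probe A_55_P2137206 at chr4:47427736-47427795 was -0.35, -0.88, -1.14 and -2.85 with EXO-Post BSA and -0.18, -1.44 and -3.01 with EXO-Post Palm. In both groups the lowest value was the array on slide 3 and the highest was on slide 1. The log2 fold change was -0.24 with an interval of -1.91 to 1.43 (limma adjusted p = 0.938), and it turned to 0.18 with slide as a block (adjusted p = 0.885), to 0.08 without EXO-Post BSA replicate 1 and to 0.49 without EXO-Post Palm replicate 3. No direction was therefore read for this probe. The other Tgfbr1 probe, A_55_P2137211 at chr4:47424946-47425005, was not tested. It was not well above background on any of the 4 EXO-Post BSA arrays and was well above it on EXO-Post Palm replicates 1 and 3, with signals of -5.61, -5.45, -6.55 and -6.33 against -4.82, -6.62 and -3.81. No fold is given, because the EXO-Post Palm mean of -5.08 did not exceed the bound of -5.00 for EXO-Post BSA, which is the mean over its arrays of the higher of the probe's own signal and the lowest signal well above background.

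**Figure D2:**
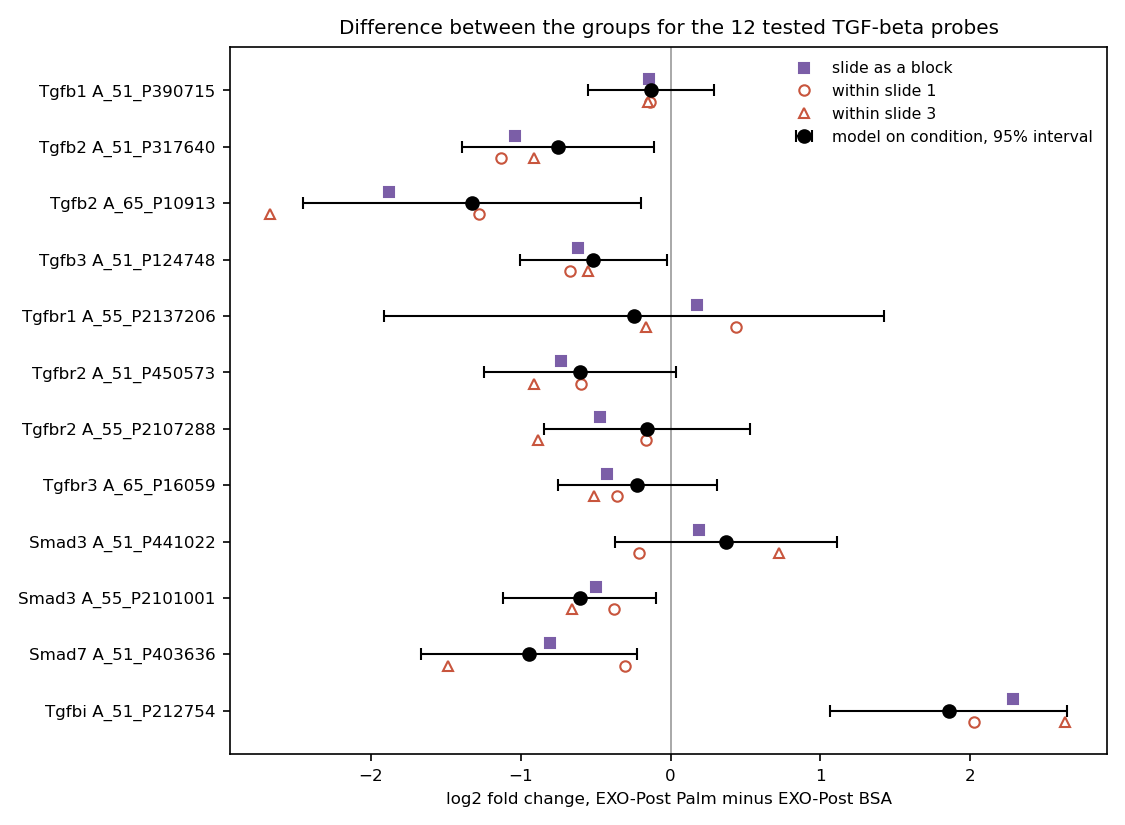
Log2 fold change (horizontal axis, EXO-Post Palm minus EXO-Post BSA) of the 12 tested probes. Black points and bars are the estimates of the model on condition with their 95% intervals, squares the model with slide as a block, and open symbols the differences within slides 1 and 3. The interval of Tgfbi (1.07 to 2.64) lies above 0, and 9 of the 12 probes were below 0 on both slides.

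On slides 1 and 3, which each hold both groups, 9 of the 12 tested probes were lower with EXO-Post Palm on both (29.4% of all tested probes). These were all ligand probes, both Tgfbr2 probes, Tgfbr3, 1 Smad3 probe and Smad7. With slide as a block, the unadjusted p was under 0.05 for 4 of the 12 probes (9.70% of all tested probes, 4.82% lower), both of Tgfb2 and A_51_P450573 of Tgfbr2 lower, and Tgfbi higher. In that model EXO-Post BSA replicate 3 and EXO-Post Palm replicate 2, each alone on its slide, add nothing to the difference, and 2 residual degrees of freedom remain.

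The 2 probes of Smad3, which carries the signal from the receptors to the nucleus, disagreed. The brighter, A_55_P2101001 at chr9:63494574-63494633, was 3.30, 2.87, 3.48 and 3.02 with EXO-Post BSA and 2.71, 2.61 and 2.37 with EXO-Post Palm. All 3 EXO-Post Palm arrays lay below all EXO-Post BSA arrays. The log2 fold change was -0.61 (95% interval -1.12 to -0.10, limma adjusted p = 0.419, exact permutation p = 0.0571), with -0.38 within slide 1 and -0.65 within slide 3. The dimmer, A_51_P441022 at chr9:63497492-63497551, was -4.16, -3.40, -4.41 and -3.72 with EXO-Post BSA and -3.99, -3.67 and -3.00 with EXO-Post Palm, and it was not well above background on EXO-Post BSA replicate 3. Its groups overlapped, and the log2 fold change was 0.37 (95% interval -0.37 to 1.11, limma adjusted p = 0.745), with -0.21 within slide 1 and 0.72 within slide 3. It moved to 0.09 without EXO-Post Palm replicate 3, to 0.59 without EXO-Post Palm replicate 1 and to 0.21 without EXO-Post BSA replicate 3. With the background corrected by normexp or subtracted, both with an offset of 50, the dimmer probe was near 0, at 0.07 and 0.06. The authors' processed values gave 0.15 for it. In the same fits the brighter probe was -0.69, -0.69 and -0.70. Over the 7 arrays, which share groups and slides, the 2 probes had a Pearson correlation of -0.83.

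Smad7, the inhibitory Smad that the pathway itself induces, was -1.71, -1.03, -1.66 and -1.29 with EXO-Post BSA and -1.67, -2.66 and -2.77 with EXO-Post Palm (A_51_P403636). EXO-Post Palm replicates 2 and 3 were about 1 log2 unit below the lowest EXO-Post BSA array, and replicate 1 lay within the EXO-Post BSA range. The log2 fold change was -0.94 (SE 0.317, 95% interval -1.67 to -0.22, limma adjusted p = 0.363, exact permutation p = 0.0571). The difference was -0.30 within slide 1 and -1.48 within slide 3, and the model with slide as a block gave -0.81 (adjusted p = 0.545).

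Tgfbi, an extracellular matrix protein that binds collagens and integrins and is named for its induction by TGF-beta, had the largest log2 fold change of the 9 genes, and this was above 0. The signal was -4.09, -4.62, -3.63 and -4.28 with EXO-Post BSA and -2.33, -2.92 and -1.64 with EXO-Post Palm (A_51_P212754, chr13:56740460-56740519, plus strand). All 3 EXO-Post Palm arrays lay above all 4 EXO-Post BSA arrays, with means of -2.30 ± 0.64 (SD, n = 3) and -4.15 ± 0.41 (SD, n = 4). These are low signals, and EXO-Post BSA replicate 4 was not well above background. The log2 fold change was 1.86 (SE 0.347, 95% interval 1.07 to 2.64), and the p-value ranked 162 of the 21589 probes, with a limma adjusted p of 0.0702. The exact permutation test gave p = 0.0286, the smallest that 4 against 3 arrays allow. Within slide 1 the difference was 2.02 and within slide 3 it was 2.63.

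Whether Tgfbi passed depended on the processing, while its log2 fold change was above 0 in every fit that tested it. It passed with slide as a block (2.28, SE 0.303) and, at 2.17, when EXO-Post Palm replicate 2 was left out, with adjusted p-values of 0.0353 and 0.0338. That array is the lowest of the 3 for Tgfbi. Leaving out each of the other arrays gave 1.53 to 2.03 with an adjusted p of 0.0802 to 0.240. Correcting the background by the normexp method with an offset of 50, or subtracting it with the same offset, reduced the log2 fold change to 0.92 and 0.84, and the authors' processed values gave 1.27. In the same fits the coding Tgfb2 probe lay farther from 0 than Tgfbi, at -1.71, -1.70 and -1.74. With the filter that asked for a signal well above background on all 7 arrays, Tgfbi was not tested.

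**Figure D3:**
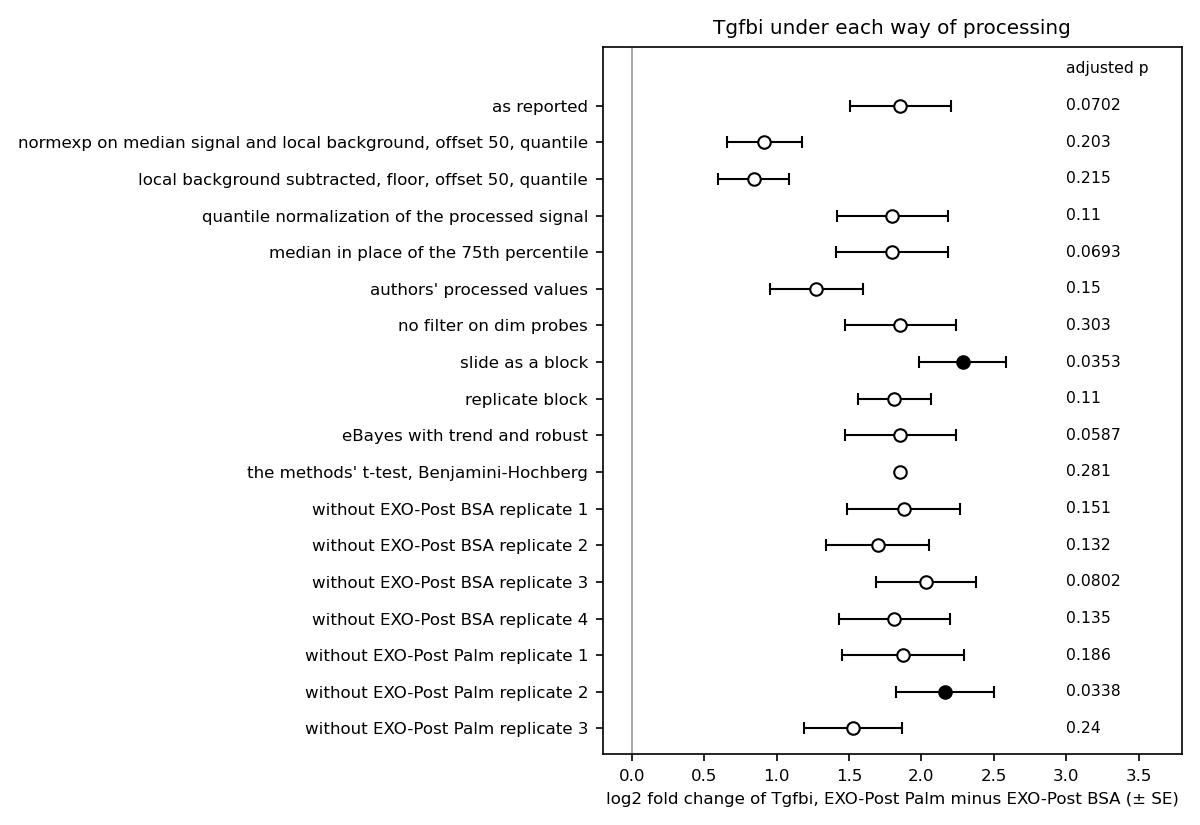
Log2 fold change of Tgfbi (horizontal axis, EXO-Post Palm minus EXO-Post BSA, bars ± SE where the test gives one) under each way of processing the arrays, with the adjusted p at the right. Filled points have an adjusted p under 0.05, which are the model with slide as a block and the one without EXO-Post Palm replicate 2. The values lie between 0.84 and 2.28.

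The promoter of Tgfbi is shown because it belongs to the gene with the smallest p-value of the 9 and holds letters that Smads are known to bind. Of the 9 genes, 6 were found in the RefSeq promoter table (GRCm38.p6, 250 bases before to 50 after the start), with 7 promoters, and Tgfb3, Tgfbr3 and Smad7 were not listed. The motif CAGAC, searched on both strands, occurred 2 times each in the promoters of Tgfbi and Tgfb2, 1 time in that of Tgfbr2 and in 1 of the 2 of Tgfbr1, and not in those of Tgfb1 and Smad3 or the other of Tgfbr1. Of 32851 promoters in the table, 49.59% hold it at least 1 time and 16.24% at least 2 times. In Tgfbi it stands on the other strand, at -239 and -85 from the start, and appears as GTCTG in capitals in the 250 bases before the start (chr13:56609336-56609585, plus strand).
Tgfbi: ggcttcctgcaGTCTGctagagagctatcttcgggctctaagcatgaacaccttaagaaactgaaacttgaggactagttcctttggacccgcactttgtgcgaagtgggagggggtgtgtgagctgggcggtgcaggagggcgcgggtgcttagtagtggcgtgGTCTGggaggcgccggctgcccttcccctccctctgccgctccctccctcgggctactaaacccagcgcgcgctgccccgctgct
Neither the palindrome GTCTAGAC (0.2131% of promoters) nor the AP-1 motif TGANTCA (7.808%), also searched on both strands, was found in any of the 7 promoters. Matches are a description of the letters, and no binding was measured.

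The probes of other genes whose signal followed that of Tgfbi most closely over the 7 arrays were Stub1 (Pearson r = 0.992), Timeless (0.988), Fetub (0.987), Ptgfr (0.986) and Cdt1 (0.986). All of these arrays carry the group difference and the slides, so the values are a description. Of the 5, Ptgfr, a prostaglandin receptor, passed the test (log2 fold change 2.01, limma adjusted p = 0.0436). Timeless, which takes part in DNA replication, gave 1.08 (adjusted p = 0.139), and Cdt1, a replication licensing factor, gave 0.69 (adjusted p = 0.323). Stub1, a ubiquitin ligase, gave 0.33 and Fetub, a secreted fetuin, 1.51 (adjusted p = 0.602 and 0.0862).

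Outside the 9 genes, 66 further genes of the pathway were taken as 4 lists by role, with the brightest probe of each gene, and 62 were tested. Of these, 3 passed an adjusted p of 0.05 and all 3 fell, Tagln, Cnn1 and Lrrc32, where 0.0695% of all tested probes were called lower. The median log2 fold change of the 62 was -0.18, with 21 above and 41 below 0 (52.7% of all tested probes were below 0). At an unadjusted p under 0.05 there were 13 genes lower and 3 higher (Ltbp2, Timp1 and Sphk1), beside 5.19% and 4.85% of all tested probes, and the groups did not overlap for 11 lower and 3 higher. Over all tested probes the groups did not overlap for 5.87% lower and 5.40% higher. The lists were chosen with earlier results of these data known, so the counts beside these shares are a description and no test of the pathway. Most of these genes also respond to signals other than TGF-beta.

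In the list on latency and activation of the ligand, 1 of 12 tested genes passed, 10 were below 0 and the median was -0.48. Over all tested probes 0.533% passed, 52.7% were below 0 and the median was -0.02. At an unadjusted p under 0.05, 4 genes of this list were lower and 1 higher, beside 5.19% and 4.85% of all tested probes. Lrrc32, a membrane protein also called GARP that holds latent TGF-beta on the cell surface, was 1.11, 0.87, 1.02 and 1.24 with EXO-Post BSA and -0.93, -0.03 and -1.13 with EXO-Post Palm. The groups were clearly apart and it fell by 1.76 on the log2 scale (SE 0.286, limma adjusted p = 0.0436), or by 2.11 with slide as a block (adjusted p = 0.0339). Of the latent TGF-beta binding proteins, none passed. Ltbp2 was 3.10 to 3.16 with EXO-Post BSA and 3.64, 3.71 and 4.02 with EXO-Post Palm (0.65, limma adjusted p = 0.272), while Ltbp1 was 1.63 to 1.75 and 1.52, 0.14 and 0.63 (-0.94, adjusted p = 0.355). In neither did the groups overlap. With slide as a block the value of Ltbp1 was -0.55. Ltbp3 and Ltbp4, the others of this family, had log2 fold changes of 0.00 and -0.01 (limma adjusted p = 0.999 and 0.990). The probes of Ltbp4 differed in direction.

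Of 10 tested accessory receptors and extracellular inhibitors none passed at an adjusted p of 0.05, 2 had an unadjusted p under 0.05 (10.0% of all tested probes) and the median was -0.20. Fmod, a small proteoglycan that binds TGF-beta, had a log2 fold change of -0.78 (limma adjusted p = 0.210), Fkbp1a, which keeps the type I receptor inactive, -0.52 (adjusted p = 0.434) and the co-receptor Cd109 -0.31 (adjusted p = 0.706). Of 16 Smads, partners and intracellular regulators none passed either, 1 had an unadjusted p under 0.05, a smaller share than the 10.0% over all tested probes, and the median was 0.11. That gene was Smad6, the other inhibitory Smad, which was -2.21, -2.19, -2.05 and -2.12 with EXO-Post BSA and -3.18, -3.70 and -2.85 with EXO-Post Palm. Its groups did not overlap, and the log2 fold change was -1.10 (SE 0.239, limma adjusted p = 0.124). Pmepa1, a target gene that dampens Smad signalling, had a value of -0.37 (adjusted p = 0.691) and the ubiquitin ligase Smurf1 0.38 (adjusted p = 0.705), which became -0.71 and 0.03 with slide as a block.

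Of 24 other target genes tested, 2 passed, 18 were below 0 and the median was -0.29. Over all tested probes 0.533% passed, 52.7% were below 0 and the median was -0.02. At an unadjusted p under 0.05, 6 genes of this list were lower and 2 higher, beside 5.19% and 4.85% of all tested probes. Both genes with an adjusted p under 0.05 encode actin-binding proteins of the contractile apparatus of smooth muscle. Tagln, or SM22 alpha, was 4.59, 4.83, 5.10 and 4.91 with EXO-Post BSA and 2.57, 3.68 and 2.68 with EXO-Post Palm, and it fell by 1.88 (SE 0.301, limma adjusted p = 0.0424). Cnn1, calponin, was -1.82, -1.85, -1.86 and -1.99 with EXO-Post BSA and -3.46, -3.12 and -3.69 with EXO-Post Palm, and it fell by 1.54 (SE 0.207, limma adjusted p = 0.0193). Both were lower in 3 of 3 EXO-Post Palm arrays than in every EXO-Post BSA array. The collagen chain Col1a1 was 5.10, 4.61, 4.67 and 4.70 against 3.64, 2.44 and 3.32, with no overlap and a log2 fold change of -1.64 (limma adjusted p = 0.0701). Chosen after their values were seen, Ctgf, a matricellular target gene, had a value of -1.35 (adjusted p = 0.226), Sphk1, a lipid kinase, 1.15 (adjusted p = 0.219) and Timp1, an inhibitor of matrix proteases, 0.70 (adjusted p = 0.456). The others of this list with an unadjusted p under 0.05 were the collagen chain Col1a2 (-1.05, adjusted p = 0.428) and the smooth muscle actin Acta2 (-0.73, adjusted p = 0.450).

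The calls of Tagln, Cnn1 and Lrrc32 depended on single arrays more than their sizes did. With each array left out in turn, Tagln lay between -2.23 and -1.67 and passed in 1 of 7 fits, Lrrc32 between -2.09 and -1.54 and passed in 1, and Cnn1 between -1.69 and -1.41 and passed in 2. The count of the 62 genes past the threshold was 0 without any of EXO-Post BSA replicates 1, 2 and 3 and EXO-Post Palm replicates 1 and 3, 1 without EXO-Post BSA replicate 4 and 5 without EXO-Post Palm replicate 2. With slide as a block Tagln (-2.17, adjusted p = 0.0327) and Lrrc32 passed and Cnn1 did not (-1.66, adjusted p = 0.0523).

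**Figure D4:**
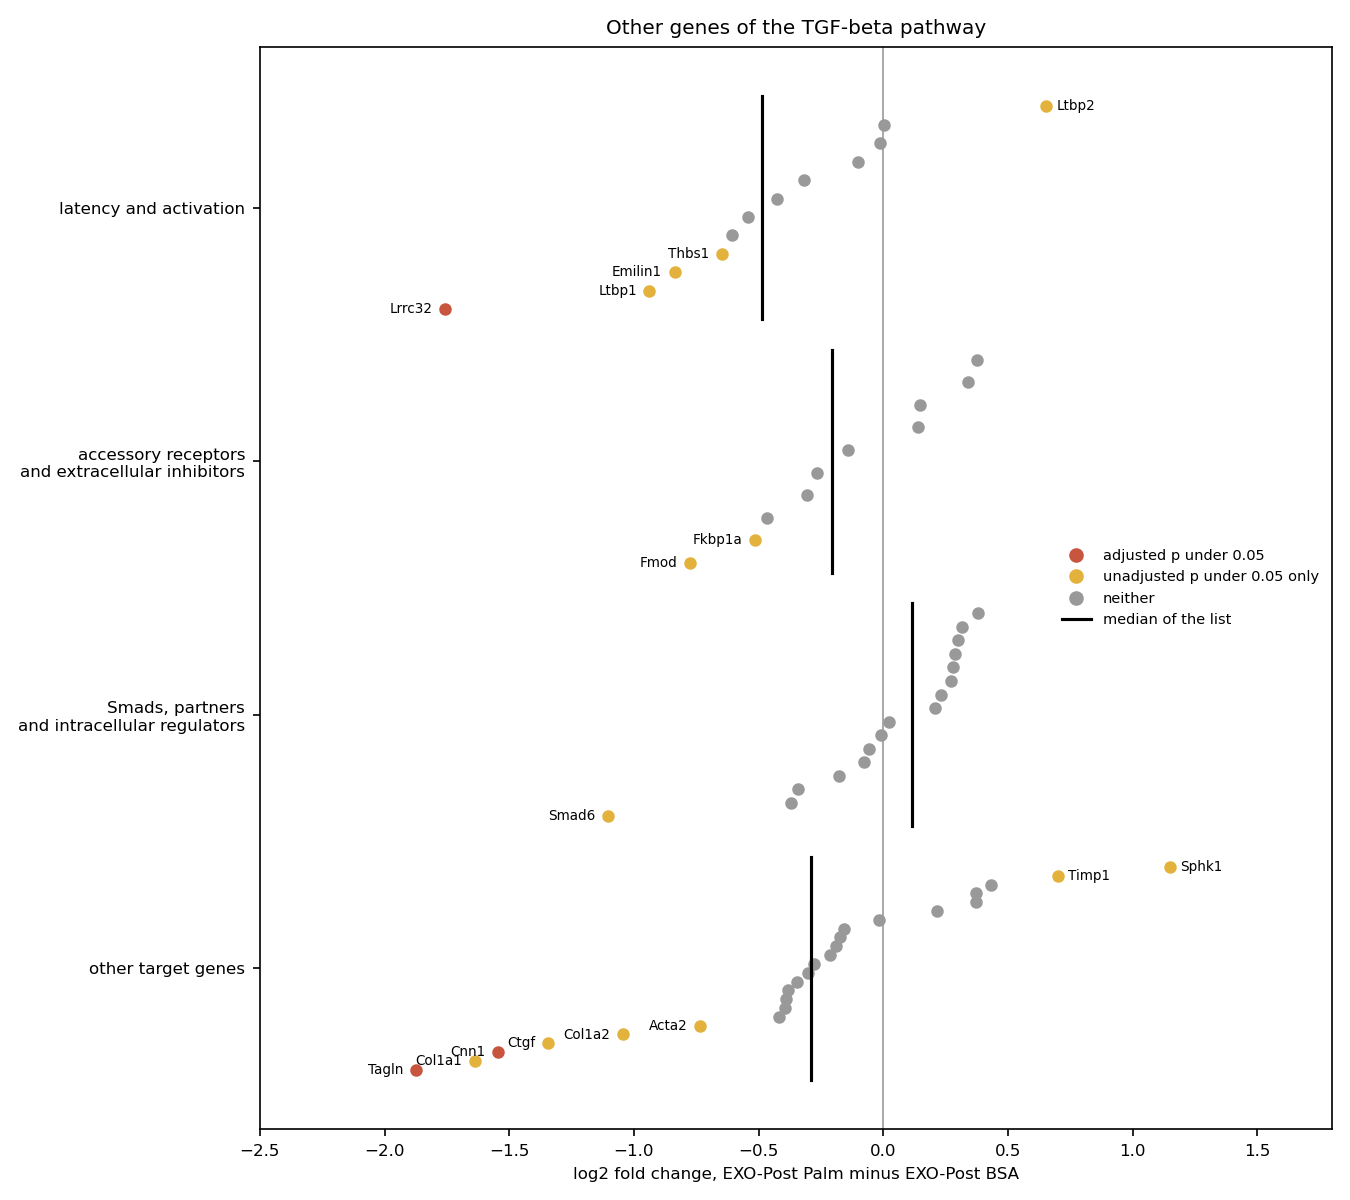
Log2 fold change (horizontal axis, EXO-Post Palm minus EXO-Post BSA) of 62 further genes of the pathway in 4 lists, 1 point per gene, with the median of each list as a line. Colours mark the adjusted and the unadjusted p, and genes with an unadjusted p under 0.05 are named. Tagln, Cnn1 and Lrrc32 have an adjusted p under 0.05, and the medians lie between -0.48 and 0.11.

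Markers of muscle and of dividing cells were read beside these values. All 7 skeletal muscle markers (Myod1, Myog, Des, Ckm, Acta1, Myh3 and Tnnt1) were well above background on all 7 arrays and none passed the test, with a summed linear signal of 437 to 503 times the 75th percentile with EXO-Post BSA and 368 and 512 on EXO-Post Palm replicates 1 and 2. On EXO-Post Palm replicate 3 the Tnnt1 spot was marked as an outlier, and the sum without Tnnt1 was 288. That sum covers 6 markers and is not comparable with the others, which include Tnnt1 (log2 signal 7.19 to 7.37 with EXO-Post BSA). Of 4 proliferation markers, Mki67, Top2a and Ccnb1 rose (log2 fold changes 2.12, 2.36 and 2.76, limma adjusted p = 0.0436, 0.0141 and 0.0108) and Cdk1 had a value of 2.44 (adjusted p = 0.133). Their sum was 1.61 to 2.50 with EXO-Post BSA and 6.95 to 16.6 with EXO-Post Palm, so it separated the groups just as Tgfbi, Tagln, Cnn1 and Lrrc32 did. The part of cell division in those differences was not tested. Of 4 markers each of other cell types, 2 of endothelial cells (Pecam1 and Kdr), 1 of macrophages and leukocytes (Csf1r) and 0 of adipocytes were well above background on all 7 arrays, and none of those tested passed. Cdh5 and Tek of endothelial cells and Cfd of adipocytes were well above it on no array. Their sums were 4.15 to 5.28 with EXO-Post BSA and 3.05 to 6.20 with EXO-Post Palm for endothelial cells, 1.17 to 1.70 and 1.40 to 2.51 for macrophages and leukocytes, and 0.0735 to 0.159 and 0.0809 to 0.114 for adipocytes. The first of these sums is mostly the probe of Kdr (log2 signal 2.00 to 2.36 with EXO-Post BSA, against -3.29 to -2.94 for Pecam1). The second is mostly that of Csf1r (0.15 to 0.66, against -4.52 to -4.28 for Emr1).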

How the data were processed

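C2C12 RNA was measured on 1-colour Agilent mouse arrays. Per the file headers, the authors' scanner software (Feature Extraction 10.7.3.1, and 11.5.1.1 for EXO-Post BSA replicate 3; the submitters' processing notes give 9.1) wrote for each of 44397 spots a processed intensity, background-subtracted but not normalised between arrays. The authors' log2 values, deposited as a further table, were joined by row order (the methods name Agi4x44PreProcess and limma). Other deposited columns used mark outlier and background spots.

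Here, outlier spots were dropped, log2 intensities were reduced by the 75th percentile of each array (549.4 to 1621 in linear units), repeat spots of a probe were averaged and the dim-probe filter left 21589 of 39429 probes. A model on condition was fitted in limma 3.58.1 (R 4.3.3, version 1.17.8 of data.table, jsonlite 2.0.0; 5 residual and 3.67 prior degrees of freedom), with 2-sided p-values and a threshold of 0.05 after Benjamini-Hochberg adjustment. Single values also had an exact permutation test over 35 ways to part the arrays. Figures used Python 3.11.15 and matplotlib 3.10.9. The model was also run on simulated arrays with independent noise and no slide differences, which does not measure its accuracy on these arrays.

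The members and gene lists were chosen with earlier results of these data known. Named are every member probe, of each pathway list the genes past the threshold and up to 3 of smallest p, and the 5 probes most like Tgfbi. Other target genes named with an unadjusted p under 0.05, and Ltbp3 and Ltbp4, fall outside this rule. There were 19 alternatives. Both background corrections used the median spot signal with an offset of 50, since 1 file has no mean signal, and were added after the data were seen. The labels say biological replicate but not what was separate, so p-values measure the spread between these arrays, which may be technical. Positions of probes are those of the array annotation (mm9). The position of the Smad7 probe is not reported here.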

Additional observations from a re-analysis of the deposited data

Results flagged for a closer look

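In the EXO-Post BSA group of 4 arrays, Dixon's test was applied to 41 probes, and 4 had 1 array far from the other 3. Tested were the probes of the 9 genes, those most like Tgfbi and the proliferation markers. The rest were pathway genes named by the rule above or with an unadjusted p under 0.05 by limma. Chance alone flags about 5% of such groups. The Tgfbr2 probe A_51_P450573 was 5.60 on EXO-Post BSA replicate 3, above 5.07 to 5.13 on the other arrays. Tgfbr3 was 0.81 on EXO-Post BSA replicate 2, below 1.11 to 1.13 on the others. Fkbp1a was 5.97 on EXO-Post BSA replicate 2, below 6.18 to 6.21 on the others. Sphk1 was 4.23 on EXO-Post BSA replicate 3, above 3.75 to 3.78 on the others.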

How the results depend on the processing

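Of 226 comparisons of a member probe with an alternative, 216 kept the direction and the side of the threshold, 7 passed it in the same direction and 3, all of the Tgfbr1 probe A_55_P2137206, reversed (0.18 with slide as a block, 0.08 without EXO-Post BSA replicate 1 and 0.49 without EXO-Post Palm replicate 3, with -0.92 to 0.49 over the 7 arrays left out). Tgfbi and the dim Smad3 probe were not tested where all 7 arrays had to be well above background. The number of member probes past the threshold was 1 with slide as a block and 5 by the methods' t-test without adjustment (0 after Benjamini-Hochberg), and 0 to 1 with each array left out. Among the 62 pathway genes it was 0 with no filter on dim probes, 0 with a replicate block and 0 by the methods' t-test after Benjamini-Hochberg, where 13, 12 and 16 had an unadjusted p under 0.05, and 0 to 5 with each array left out. Among all tested probes, 115 as reported, it was 0 with no filter and 0 with the replicate block (limma, 1900 and 1933 at an unadjusted p under 0.05), 173 with a trended and robust fit, 0 by the methods' t-test after Benjamini-Hochberg and 2107 without, and 4 to 228 with each array left out (63, 64, 61 and 69 without EXO-Post BSA replicates 1 to 4 and 7, 228 and 4 without EXO-Post Palm replicates 1 to 3). Of all tested probes, 0.533% passed with slide as a block. With no filter, 1900 of 39429 had an unadjusted p under 0.05 by limma. With the replicate block by limma and by the methods' t-test, 1933 and 2107 of 21589 did. The causes of these changes in the counts were not tested. Of the 115 calls 100 were higher and 15 lower, against 97 and 31 after normexp. Same-numbered arrays of the 2 groups did not deviate together (correlations 0.12, -0.15 and -0.15). The numbers were therefore not taken to pair the samples, and the replicate block is given for the count alone. Arrays of the 2 groups on the same slide had correlations of 0.12, 0.31 and 0.18, the first being also the same-numbered pair of replicates 1. Those on different slides had -0.22 to 0.20. Dim signals limit Tgfbi, the dim Smad3 probe and the untested Tgfbr1 probe.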
